A study of Arabidopsis thaliana with 8 samples.

Results

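Roots and shoots of Arabidopsis thaliana were compared while both organs were exposed to 2,5-dimethylpyrazine, called 2,5-D here, a volatile pyrazine released by microbes. The comparison takes 4 of the 8 libraries of the series, 2 from roots and 2 from shoots, all from wild-type plants of ecotype Col-0 given 100 µM of the compound on a paper disc in a divided plate. The other 4 libraries, 2 from roots and 2 from shoots of plants given water on the disc, are used here only to ask whether an organ difference was the same without the compound. Per the labels the exposure lasted 24 hours, while the growth protocol names 14 days of growth together in the plate, so the length of contact is not settled. The labels give neither the age of the plants at the start nor whether replicate libraries came from separate plants. The p-values therefore rest on the spread of libraries within a group, and that spread may be technical only.

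Root and shoot differ in what they feed the plant. Leaf mesophyll captures light with chlorophyll-binding antenna proteins and fixes carbon with Rubisco, and sugar leaves it through the phloem. The root takes up nitrate, ammonium and other ions, its endodermis seals the path between cells with the Casparian strip and suberin, and the xylem carries the nitrate upward. The series was built around nitrate and ammonium transport, and the organ in which each transporter transcript sits is part of that question.

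The deposited values are a normalised expression signal per gene and library for 3691 listed genes, in a table for roots and another for shoots. Differences are root minus shoot in log2(value + 1), a scale on which low genes appear less changed than they are. Testing covered the 3610 of 3691 genes that averaged at least 1 in the 4 libraries, and a gene was called at an adjusted p under 0.05 in limma with the Benjamini-Hochberg adjustment, with no fold limit. The sources used here do not give the authors' rule for listing genes. All but 2 genes had both 2,5-D libraries above or below both water libraries in at least 1 organ, so the tables look picked on these same libraries, and every count below is a count within them.

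Both tables had to be on a similar scale for the organs to be set side by side. Listed genes totalled 343912 and 328345 in the root 2,5-D libraries and 305548 and 296689 in the shoot 2,5-D libraries, and the median gene stood at 20.3 and 21.2 in roots and at 19.9 and 18.9 in shoots. The smallest steps between low values, taken as single reads, gave relative depths of 94.2% and 91.6% in roots and of 89.5% and 83.9% in shoots, with the deepest library of the series at 100%. The sources used here do not say whether the authors scaled the tables together, so each level set across them carries that limit. Across genes the root pair correlated at r = 0.996 and the shoot pair at 0.995 on the log2 scale, while pairs of a root and a shoot library correlated at 0.640 to 0.663. These correlations run over genes, which are not independent replicates.

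With 2,5-D present, 2840 of 3610 tested genes (78.7%) differed between the organs, 1631 of them higher in root (45.2%) and 1209 higher in shoot (33.5%). The 2 root libraries lay wholly above or wholly below the 2 shoot libraries in 3245 genes (89.9%). A difference of at least 1 on the log2 scale in a called gene was reached by 1031 genes (28.6%) toward root and 714 (19.8%) toward shoot, and one of at least 3 by 282 (7.81%) toward root and 231 (6.40%) toward shoot. The median over all tested genes was 0.16, with quartiles at -0.70 and 1.18 and a median standard error of 0.14. Scaling the libraries to equal medians, to equal totals or by quantiles put that median at 0.08, 0.01 and -0.03, so the lean toward root depended on the scale, and the quantile setting gave 1456 calls toward root and 1446 toward shoot. In these bulk organ samples, fewer cells of a type and less RNA per cell cannot be told apart.

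The promoters of 5 genes whose organ difference is described below are shown first, each as the 250 bases before the annotated gene start, on the gene's own strand. They were read from the RefSeq assembly TAIR10.1, because the sources used here do not name the authors' build, and none overlaps another annotated gene. RBCS2B is the gene with the largest difference toward shoot and AT4G22212 the one with the largest toward root. HSP17.4 leads the heat shock list, and MIPS3 and MIPS1 are close relatives that lean to opposite organs. Capitals mark the I-box core GATAAG, the G-box CACGTG, the W-box core TTGACC, the TATA box core TATAAA and the heat shock element unit GAANNTTC on either strand. The last of these was added after the values were seen.
RBCS2B, chr5:15382072-15382321, minus strand: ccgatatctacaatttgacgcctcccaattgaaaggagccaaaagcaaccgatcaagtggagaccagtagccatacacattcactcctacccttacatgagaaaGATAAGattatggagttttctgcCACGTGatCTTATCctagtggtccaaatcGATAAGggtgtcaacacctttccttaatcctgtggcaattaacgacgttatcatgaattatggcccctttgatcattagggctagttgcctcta
AT4G22212, chr4:11753592-11753841, plus strand: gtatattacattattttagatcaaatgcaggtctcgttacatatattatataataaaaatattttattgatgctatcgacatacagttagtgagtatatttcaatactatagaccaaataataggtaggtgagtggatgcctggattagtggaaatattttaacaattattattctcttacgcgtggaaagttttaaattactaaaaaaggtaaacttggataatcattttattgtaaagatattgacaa
HSP17.4, chr3:16984868-16985117, minus strand: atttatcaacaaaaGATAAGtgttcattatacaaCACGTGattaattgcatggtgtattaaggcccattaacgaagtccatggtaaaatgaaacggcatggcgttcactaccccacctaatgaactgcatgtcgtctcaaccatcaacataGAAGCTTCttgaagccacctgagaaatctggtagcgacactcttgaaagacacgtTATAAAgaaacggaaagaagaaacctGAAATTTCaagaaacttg
MIPS3, chr5:3190322-3190571, minus strand: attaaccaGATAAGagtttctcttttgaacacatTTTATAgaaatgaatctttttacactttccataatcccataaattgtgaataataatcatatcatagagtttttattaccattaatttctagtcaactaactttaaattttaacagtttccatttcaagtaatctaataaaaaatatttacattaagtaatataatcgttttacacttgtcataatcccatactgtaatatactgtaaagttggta
MIPS1, chr4:18472049-18472298, minus strand: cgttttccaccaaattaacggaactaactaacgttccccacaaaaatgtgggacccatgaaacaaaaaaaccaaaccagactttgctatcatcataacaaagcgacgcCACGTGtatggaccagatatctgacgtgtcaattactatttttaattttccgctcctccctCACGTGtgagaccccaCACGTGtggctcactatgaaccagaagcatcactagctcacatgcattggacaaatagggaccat
The RBCS2B window holds the I-box core starting 146, 115 and 94 bases before the gene start and a G-box at 123, light-response elements known from Rubisco small-subunit promoters. The MIPS1 window holds the G-box at 142, 81 and 65 bases, and the MIPS3 window holds no G-box but an I-box core at 242. The HSP17.4 window, of a gene higher in root, also holds an I-box core at 236 and a G-box at 216 bases. No searched motif lies in the AT4G22212 window.

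Several of the largest differences toward shoot were in genes for chloroplast proteins. RBCS2B (AT5G38420), a small subunit of Rubisco, stood at 0.26 and 0.18 in the root libraries, against 1819 and 2533 in the shoot libraries. AT1G09310, a gene of unknown function with a DUF538 domain, had 2.21 and 2.79 in root and 1402 and 1337 in shoot. The CA2 transcript, for a carbonic anhydrase that interconverts carbon dioxide and bicarbonate, was at 0.18 and 0.46 in root and at 408 and 488 in shoot. All 3 genes were near the bottom of the scale in both roots and far apart from both shoots, with differences of -10.78 ± 0.16, -8.62 ± 0.13 and -8.41 ± 0.16 (SE, n = 2 each; adjusted p in limma 5.73e-12, 5.73e-12 and 1.48e-11). The other 9 of the 12 largest were OEP6, RBCS1B, LHCB1.1, GER3, GRP3S, AT3G05730, AT1G11850, NdhL and GPT2, with differences between -8.02 and -6.45. GER3, a germin-like protein, was listed at 0 in both roots and at 215 and 223 in the shoots. The defensin-like gene AT3G05730 was also listed at 0 in both roots, against 162 and 153 in the shoots.

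The largest differences toward root came from genes of several kinds, among them defensin-like, lipid-transfer-like and cell wall proteins. AT4G22212, a defensin-like gene, had 768 and 807 in root, against 3.22 and 1.01 in shoot. BGLU22 (AT1G66280), a beta-glucosidase of the group stored in root ER bodies, reached 866 and 1005 in root, against 7.19 and 2.2 in shoot. The differences of AT4G22212 and BGLU22 were 8.08 ± 0.26 and 7.51 ± 0.32 (SE, n = 2 each; adjusted p in limma 3.76e-10 and 2.14e-09). AT4G33720, of the CAP family that includes pathogenesis-related protein 1, had the highest level among the 24 leading genes, at 10246 and 8154 in root and 59.5 and 193 in shoot. PCK2, a phosphoenolpyruvate carboxykinase of gluconeogenesis, stood at 102 and 134 in root and 0.41 and 0.31 in shoot. The remaining 8 were the lipid-transfer-like genes AT4G22610 and AT4G12545, the lectin AT5G35940, the methyltransferase AT3G44870, the extensin-like AT1G26250, AT3G14260, CYP71A20 and the LOB-domain transcription factor ASL5, between 6.29 and 7.20.

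**Figure D1:**
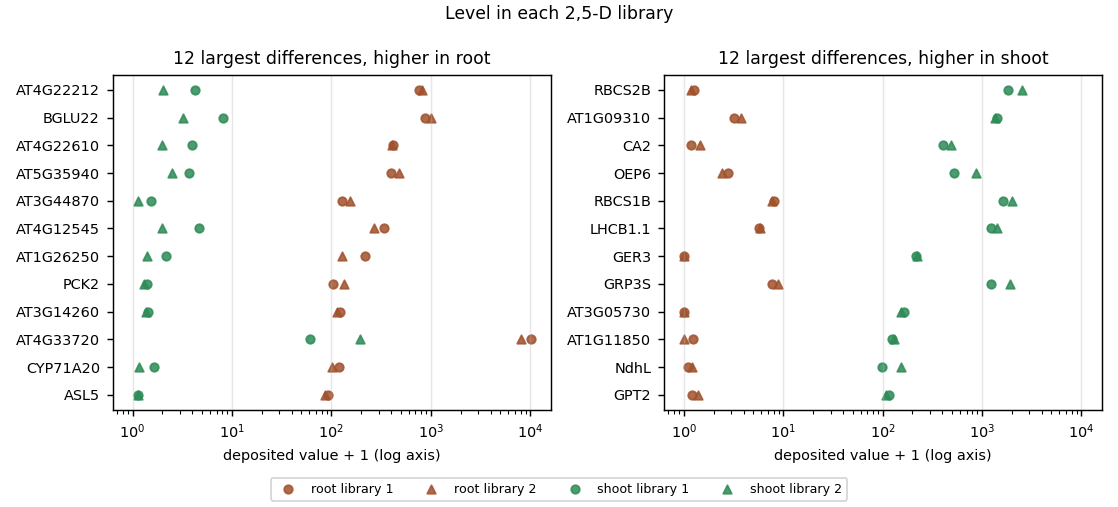
Normalised expression value plus 1 (log axis) of the 12 genes with the largest difference toward root (left panel) and the 12 toward shoot (right panel), with brown symbols for the 2 root and green symbols for the 2 shoot 2,5-D libraries. The 24 genes were chosen among called genes whose organs do not overlap, so their separation is a condition of the choice. They run from 768 and 807 in root against 3.22 and 1.01 in shoot for AT4G22212 to 0.26 and 0.18 in root against 1819 and 2533 in shoot for RBCS2B.

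Low values of root-type transcripts in the shoot libraries leaned to library 1 by gene count and to library 2 by sum. The genes were picked on these same libraries, and genes are not replicates. Among the 45 genes that were at least 5 higher in root, 35 had a higher value in shoot library 1 than in shoot library 2, with a median ratio of 1.6. Their summed level was 19689 and 17522 in the root libraries and 200 and 281 in the shoot libraries, the sum being led by AT4G33720. The 30 genes at least 5 higher in shoot summed to 276 and 228 in the root libraries and to 21270 and 22772 in the shoot libraries. Whether a little tissue of the other organ entered a sample was not tested.

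The organ labels were set against marker genes. Of 10 mesophyll markers 4 are in the tables, and they summed to 55.54 and 55.50 in root and 5459 and 6154 in shoot. Of 7 endodermis markers 3 are in the tables, CASP1, CASP2 and ESB1, and they summed to 57.8 and 72.9 in root and 2.34 and 1.87 in shoot. CASP2 was listed at 0 in both shoots, and ESB1 made up nearly the whole shoot sum. Both marker sets went with the labels. None of the 5 guard cell, 5 root hair and 3 root cap markers is in the tables.

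Photosynthesis genes lay on the shoot side. All 12 listed members of the light-harvesting antenna and all 9 photosystem subunits were called higher in shoot, against 33.5% of all tested genes, with median differences of -4.92 and -4.49. LHCB1.1, a main antenna protein of photosystem II, had 4.71 and 4.88 in root and 1219.9 and 1427 in shoot, and LHCB3, of the same antenna, 47.9 and 43.4 in root and 1501 and 1713 in shoot. PSAO, a subunit of photosystem I, was at 69.3 and 60.2 in root and 1687 and 1769 in shoot. The antenna genes did not share one root level: their differences ran from -7.83 for LHCB1.1 to -2.99 for LHCB2.3, which kept 27.0 and 26.1 in root, against 216 and 220 in shoot. The LHCB1 copies, like the RBCS copies, are near-identical in sequence, so the split of reads between them is uncertain.

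Carbon fixation and photorespiration followed with 6 of 7 members higher in shoot, against 33.5% of all tested genes, and a median of -4.42. GOX1, the glycolate oxidase of photorespiration, had 16.83 and 15.43 in root and 508 and 614 in shoot. The exception was GLYK, glycerate kinase of the same cycle, with 268 and 295 in root and 121 and 129 in shoot, a difference of 1.17 ± 0.12 (SE; adjusted p in limma 3.06e-06). Chlorophyll synthesis had 6 of 6 members higher in shoot, against that same share of all tested genes, with a median of -3.05. PORB, which reduces protochlorophyllide in the light, was at 22.1 and 20.3 in root and 300.4 and 326 in shoot. HEMA1, which starts tetrapyrrole synthesis for chlorophyll and haem alike, was far closer, at 162 and 157 in root and 220 and 229 in shoot (-0.49 ± 0.11, SE).

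**Figure D2:**
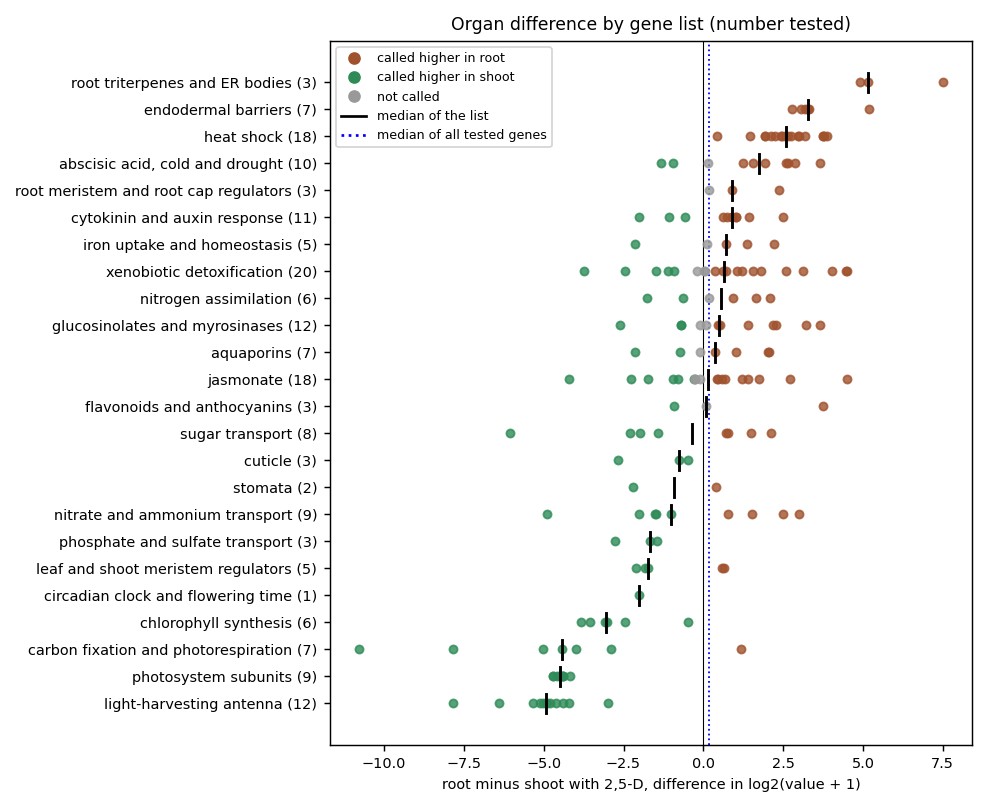
Root minus shoot difference in log2(value + 1) with 2,5-D for every tested member of 24 gene lists (rows, number tested in brackets), brown where called higher in root, green where called higher in shoot and grey where not called, with the list's median as a black bar and the median of all tested genes as a dotted line. The antenna list lies lowest, at a median of -4.92, and the 3 genes of root triterpenes and ER bodies lie highest, at 5.15.

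Structural genes of the root endodermis were all higher in root. The 7 listed members among 20 genes of the Casparian strip and suberin were called toward root, against 45.2% of all tested genes, with a median of 3.28. CASP1, a scaffold protein of the Casparian strip, had 33.5 and 42.0 in root, against 0.10 and a listed 0 in shoot, a difference of 5.20 ± 0.16 (SE; adjusted p in limma 2.94e-10). ASFT, which adds ferulate to suberin, was at 41.8 and 42.7 in root and 3.98 and 2.89 in shoot. SGN1, a kinase needed for Casparian strip continuity, had 13.9 and 14.3 in root and 0.46 and 0.63 in shoot, and GPAT7, an acyltransferase, 12.5 and 8.96 in root and 0.27 and 0.13 in shoot. The organs did not overlap in any of the 7 listed members, as in 89.9% of all tested genes.

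Genes of root-specific chemistry lay on the same side. So did 2 of the 3 listed root meristem and root cap regulators, against 45.2% of all tested genes. THAS1, thalianol synthase, had 72.1 and 65.2 in root and 2.24 and 0.66 in shoot, and MRO, an oxidase of marneral, 49.4 and 43.5 in root and 0.64 and 0.09 in shoot. With BGLU22 they made 3 of 3 listed members among 15 genes toward root, against 45.2% of all tested genes, at a median of 5.15. WOX5, the homeobox gene of the quiescent centre, was at 4.81 and 4.83 in root and 0.16 and 0.09 in shoot. The WOX5 difference was 2.37 with 2,5-D and 1.37 in water (adjusted p of the change in limma 0.0219). SHR, which specifies the endodermis, had a smaller difference of 0.90 ± 0.19 (SE; adjusted p in limma 1.15e-03), and JKD, which acts with it, was not called at 0.17 ± 0.15 (SE). None of the 15 root hair genes of the list is in the tables.

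Regulators of leaf and shoot meristem identity lay on both sides. TCP4, a regulator of leaf growth, had 1.44 and 1.68 in root and 10.6 and 9.25 in shoot, TCP13 3.21 and 3.26 in root and 13.4 and 14.7 in shoot, and the shoot meristem gene STM 0.25 and 0.43 in root and 4.29 and 2.77 in shoot. These 3 were called toward shoot, while PHB (0.63) and GRF3 (0.57) were called toward root, beside 33.5% and 45.2% of all tested genes. EPFL9, the stomagen peptide that promotes stomata, stood at 0.90 and 0.85 in root and 7.50 and 7.63 in shoot. OST1, a kinase that closes stomata, was called toward root by 0.38 ± 0.14 (SE), a call lost in 8 of the alternative settings run. MYB96, a regulator of wax synthesis, was at 12.2 and 12.3 in root and 92.7 and 76.6 in shoot, and the cuticle genes KCS1 (-0.77) and CER10 (-0.47) lay on the same side. The clock gene PRR7 had 3.77 and 4.12 in root and 21.6 and 16.9 in shoot.

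Nitrate and ammonium transporters were found on both sides. Of 27 genes of the list, 10 are in the tables and 9 were tested, of which 4 were called higher in root and 5 higher in shoot, against 45.2% of all tested genes toward root and 33.5% toward shoot, with a median of -1.01. SLAH1, a homologue of the guard cell anion channel, was below the filter with 0.34 and 0.45 in root and 0.15 and 0.22 in shoot. The 4 toward root all belong to the nitrate families. NRT1.5 (AT1G32450), the transporter that passes nitrate to the xylem in roots, had 97.3 and 125 in root and 15.2 and 10.8 in shoot, a difference of 3.01 ± 0.18 (SE, n = 2 each; adjusted p in limma 2.64e-08). NRT1.9 (AT1G18880), which loads nitrate into root phloem, was at 27.3 and 28.9 in root and 4.69 and 3.68 in shoot (2.5 ± 0.15; 3.66e-08). NRT2.1 (AT1G08090), the main high-affinity nitrate uptake protein of roots, was at 7.70 and 7.32 in root and 2.39 and 1.57 in shoot (1.53 ± 0.17; 6.06e-06). The organs did not overlap in these 3 genes, as in 89.9% of all tested genes. The order of their root levels, NRT1.5 above NRT1.9 above NRT2.1, held in both root libraries. NRT2.6 (AT3G45060) was low in both organs, at 1.77 and 2.4 in root and 0.50 and 1.1 in shoot (0.79 ± 0.19; 2.56e-03), and its call was lost with quantile normalisation (adjusted p 0.178) and with the trend over gene length removed (0.109).

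The 5 genes toward shoot included both listed ammonium transporters. NRT2.5 (AT1G12940), a nitrate transporter of high affinity known from nitrogen-starved plants and from leaf veins, had 0.26 and 0.12 in root and 42.0 and 28.2 in shoot, the widest gap of the list at -4.90 ± 0.19 (SE, n = 2 each; adjusted p in limma 1.13e-09). AMT1;1 (AT4G13510), a high-affinity ammonium transporter, was at 38.2 and 51.7 in root and 190.1 and 178 in shoot (-2.02 ± 0.15; 2.02e-07). AMT2 (AT2G38290), the other ammonium transporter, stood at 36.7 and 43.5 in root and 78.2 and 84.8 in shoot (-1.01 ± 0.13; 2.90e-05). Both ammonium transporters were well expressed in root and still higher in each shoot library. NRT1.8 (AT4G21680), which takes nitrate back out of the xylem, had 37.2 and 43.9 in root and 99.5 and 140 in shoot (-1.52 ± 0.17; 5.81e-06). SLAH3 (AT5G24030), a nitrate-permeable anion channel, had 32.5 and 32.8 in root and 82.1 and 103 in shoot (-1.47 ± 0.14; 1.76e-06).

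**Figure D3:**
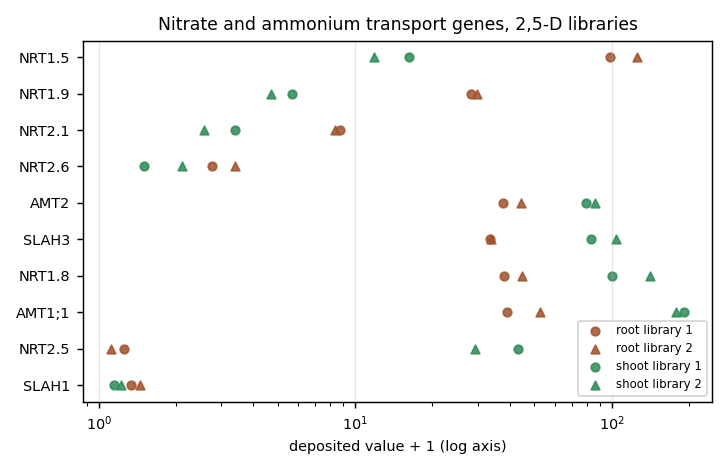
Normalised expression value plus 1 (log axis) of the 10 listed nitrate and ammonium transport genes in the 2 root (brown) and 2 shoot (green) 2,5-D libraries, ordered by difference, with the untested SLAH1 at the bottom. NRT1.5, NRT1.9, NRT2.1 and NRT2.6 have their root symbols to the right, while AMT2, SLAH3, NRT1.8, AMT1;1 and NRT2.5 have their shoot symbols to the right.

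In the water libraries, NRT1.8 and SLAH3 did not lie on the shoot side: their organ differences were 0.43 and 0.75 in water, against -1.52 and -1.47 with 2,5-D. The test of that change over all 8 libraries gave -1.95 ± 0.71 and -2.22 ± 0.70 (SE) with adjusted p of 0.0776 and 0.0532 in limma, so neither was called. The water values of these genes were spread: NRT1.8 had 102 and 34.6 in root water and 55.7 and 34.9 in shoot water, and SLAH3 61.8 and 22.8 in root water and 15.43 and 31.2 in shoot water. NRT2.5 was called, with a wider gap to shoot with 2,5-D (-4.90, against -3.52 in water; adjusted p 0.0193). NRT1.9 was called only just, with a smaller gap to root with 2,5-D (2.5, against 3.36 in water; adjusted p 0.0499). No gene of the tables was called for such a change without root 2,5-D library 1.

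Downstream of uptake, nitrogen assimilation divided by enzyme. NIR1, nitrite reductase of the plastid, had 66.2 and 74.7 in root and 249 and 233 in shoot, a difference of -1.76 ± 0.12 (SE, adjusted p in limma 1.11e-07). The NIR1 difference in water was smaller, at -0.71 (adjusted p of the change in limma 0.0462). That was the 1 change called among the 6 listed members, beside 22.5% of all tested genes called toward shoot. GDH2, a glutamate dehydrogenase of mitochondria, was at 1192 and 1324 in root and 276 and 315 in shoot, and ASN1, asparagine synthetase, at 121 and 153 in root and 48.7 and 38.2 in shoot. GDH3 had 2.53 and 2.63 in root and 0.64 and 1.13 in shoot. Of the 6 listed members among 18, 3 were called toward root and 2 toward shoot, beside 45.2% and 33.5% of all tested genes, the second being the nitrate reductase NIA2 (-0.63), while NIA1 was not called (0.17).

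Other nutrient and water transport genes gave short lists. The 3 listed members among 22 phosphate and sulfate transport genes were called toward shoot, against 33.5% of all tested genes. SULTR3;1 had 4.02 and 4.17 in root and 35.6 and 32.1 in shoot, and the differences were -1.68 for PHT1;7 and -1.46 for SULTR2;2. Among 5 tested iron genes 3 were called toward root and 1 toward shoot, beside 45.2% and 33.5% of all tested genes. IRT2, a root iron transporter, stood at 3.64 and 3.66 in root and was listed at 0 in both shoots, while FRO3, a mitochondrial ferric reductase, had 8.63 and 8.21 in root and 43.7 and 37.0 in shoot. FRD3, a citrate exporter of the root stele (1.36), and PYE (0.72) were also toward root. Aquaporins counted 4 toward root and 2 toward shoot of 7, beside those same shares of all tested genes: PIP2;4 had 16.31 and 19.98 in root and 3.83 and 3.36 in shoot, TIP3;1 4.34 and 3.23 in root and 0.14 and 0.22 in shoot, and NIP6;1, a boron channel, 1.57 and 1.1 in root and 10.6 and 8.23 in shoot.

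Among 8 tested sugar transport genes 4 were toward each organ, beside 45.2% of all tested genes toward root and 33.5% toward shoot. SWEET11, which releases sucrose for phloem loading in leaves, was at 1.32 and 1.76 in root and 162 and 171 in shoot, a difference of -6.05 ± 0.14 (SE; adjusted p in limma 7.69e-11). SUC2, the sucrose importer of companion cells, had 21.4 and 22.2 in root and 110 and 114 in shoot. Both loading genes had a wider gap with 2,5-D than in water, where the differences were -4.33 and -1.0 (adjusted p of the change 0.0134 for each). SWEET2, a vacuolar sugar carrier of roots, had 20.7 and 19.8 in root and 3.96 and 3.85 in shoot, and 5.99 and 6.75 in root water and 8.76 and 5.81 in shoot water, so its difference of 2.11 with 2,5-D stood against -0.15 in water (adjusted p of the change 0.0125).

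The heat shock list was the largest list with every member on one side. All 18 listed members of 20 were called higher in root, against 45.2% of tested genes, with a median of 2.6 and a range from 0.44 for HSP18.2 to 3.86 for HSP17.4. HSP17.4, a small heat shock protein that holds unfolding proteins in solution, had 82.8 and 53.8 in root and 4.77 and 2.75 in shoot. HSP17.6B had 76.6 and 56.5 in root and 3.81 and 3.9 in shoot, and HSP17.6II 40.5 and 30.6 in root and 2.34 and 1.19 in shoot. Root library 1 was above root library 2 in all 3, and the lower root library was still over 10 times the higher shoot library. The chaperone HSP101, which pulls aggregates apart, had 31.1 and 29.3 in root and 4.93 and 4.46 in shoot, and the transcription factor HSFA2 14.2 and 13.9 in root and 3.03 and 2.82 in shoot.

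The list as a whole did not lean to root in water. The median organ difference of the 18 genes was 2.6 with 2,5-D and -0.06 in water, and the change of the organ difference was called toward root in 14 of the 18, against 10.4% of all tested genes, with a median of 2.86. HSP21, a chaperone of plastids, stood at 17.3 and 10.6 in root with 2,5-D, 1.84 and 0.65 in shoot with 2,5-D, 0 and 0.26 in root with water and 3.53 and 1.01 in shoot with water. The water values show root below shoot, and the 2,5-D values show root above shoot. HSFB1, a repressor-type heat shock factor, was an exception, with 435 and 408 in root and 115 and 103 in shoot with 2,5-D, and a difference of 2.16 in water already. The median change stayed between 2.34 and 3.5 when any library was left out, but the number of the 18 called went to 0 without root 2,5-D library 1 or shoot 2,5-D library 1 and to 3 without shoot 2,5-D library 2. The genes were listed with their response known, so these counts are no independent evidence of it.

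**Figure D4:**
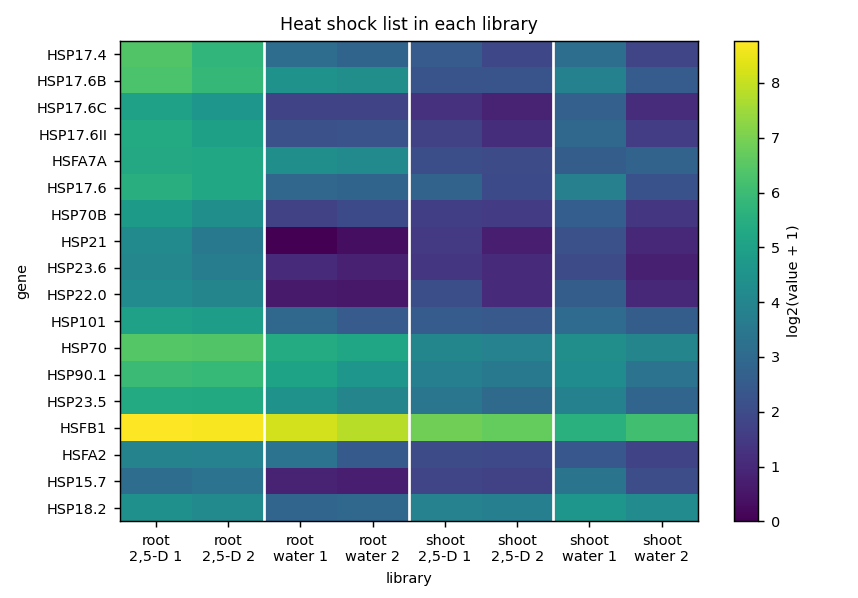
Level of the 18 heat shock genes (rows, ordered by organ difference with 2,5-D) in each of the 8 libraries (columns), as log2(value + 1) on the colour scale. The 2 root 2,5-D columns are brighter than the root water and shoot columns in most rows, as for HSP17.4 with 82.8 and 53.8 in root and 4.77 and 2.75 in shoot with 2,5-D.

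Over all genes, the organ difference with 2,5-D differed from that in water in 1187 of 3602 tested genes (33.0%), 375 of them shifted toward root (10.4%) and 812 toward shoot (22.5%). The 5 largest shifts toward root were HSP21 (4.18 ± 0.64, SE), HSP17.6C (3.84 ± 0.68), HSP17.6II (3.77 ± 0.61), HSP22.0 (3.73 ± 0.79) and AT4G28290 (3.64 ± 0.36), an uncharacterised gene with 169 and 151 in root and 4.82 and 8.76 in shoot with 2,5-D. The 5 largest toward shoot were MC8 (-2.41 ± 0.64), a metacaspase, AT2G17740 (-2.34 ± 0.45), CYP76C6 (-2.33 ± 0.55), the TIR-NBS-LRR receptor gene AT4G11170 (-2.23 ± 0.36) and RLP12 (-2.18 ± 0.51). MC8 had 0.63 and 0.80 in root and 34.4 and 26.8 in shoot with 2,5-D, and 1.16 and 0.88 in root and 3.08 and 10.8 in shoot with water. RLP12, a receptor-like protein, kept a higher level in root with 2,5-D (23.0 and 28.6, against 19.1 and 12.9 in shoot) and had a wider gap in water (39.2 and 33.6 in root, against 2.57 and 6.44 in shoot).

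The count of 1187 rests on the scale and on single libraries. With equal medians it was 687 with 476 toward root, and without root 2,5-D library 1 it was 0, with 1236 genes at an unadjusted p under 0.05. It was 25 without shoot 2,5-D library 1, 106 without shoot 2,5-D library 2, 588 without root 2,5-D library 2, 626 and 445 without root water library 1 and 2, and 1954 without shoot water library 2. The shoot water libraries were over 2-fold apart in 550 genes, against 2 in the root 2,5-D pair, 12 in the shoot 2,5-D pair and 31 in the root water pair.

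**Figure D5:**
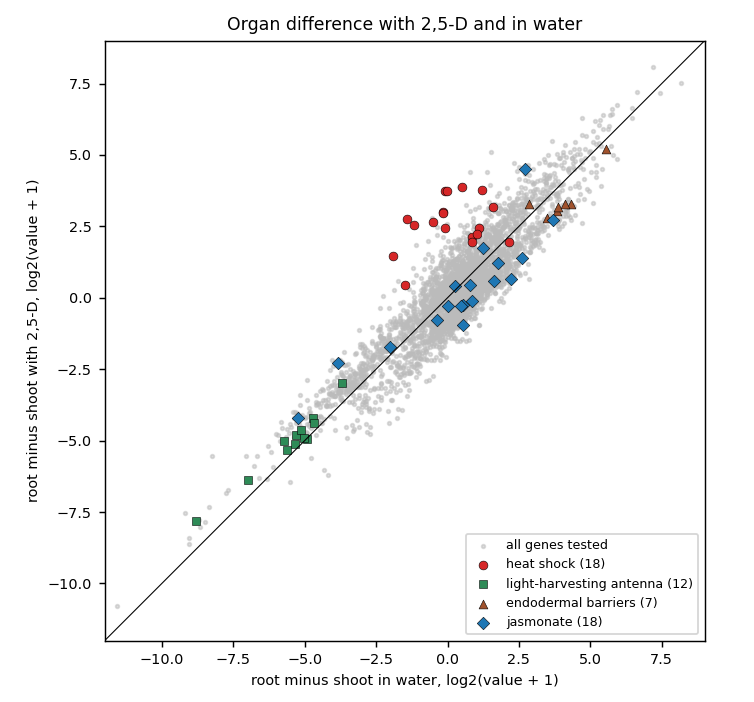
Root minus shoot difference with 2,5-D (vertical axis) against the same difference in water (horizontal axis), both in log2(value + 1), for all 3602 tested genes (grey) and for 4 lists, with the line of equality. The 18 heat shock genes lie mostly above the line, with a median of 2.6 with 2,5-D and -0.06 in water. The 12 antenna genes have a median change of 0.49 and the 7 endodermal genes one of -0.70.

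Antenna genes had a median organ difference of -4.92 with 2,5-D and -5.23 in water. The median change per gene was 0.49, and 2 of 12 changes were called, both toward root (LHCB1.1 at 0.97 and LHCB2.3 at 0.70), against 10.4% of all tested genes. The mesophyll markers summed to 5459 and 6154 in shoot with 2,5-D and to 10369.6 and 10399 in shoot with water, and to 55.54 and 55.50 in root with 2,5-D and 60.8 and 82.6 in root with water. Endodermal genes had a median of 3.28 with 2,5-D and 3.87 in water, with a median change per gene of -0.70 and 3 of 7 changes called, all toward shoot, against 22.5% of all tested genes. Their markers summed to 57.8 and 72.9 in root with 2,5-D and to 128 and 121 in root with water.

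Of 18 listed jasmonate genes 9 were called toward root and 6 toward shoot, shares near the 45.2% and 33.5% of all tested genes, with a median of 0.16, the same to 2 decimals as that of all tested genes. AOC2 (AT3G25770), an allene oxide cyclase of jasmonate synthesis, had 36.39 and 36.37 in root and 601 and 796 in shoot (-4.21 ± 0.14, SE; adjusted p in limma 4.64e-10), and its neighbour in the family AOC1 83.0 and 80.6 in root and 354 and 448 in shoot. CYP94B1, which inactivates the active hormone by oxidation, was at 47.7 and 48.5 in root and 0.64 and 1.89 in shoot (4.49 ± 0.23), and CYP94B3, of the same step, at 476 and 419.6 in root and 69.5 and 65.0 in shoot. The organs did not overlap in these 4 genes, as in 89.9% of all tested genes. AOC3, another cyclase, looked up after the values were seen, was toward root, with 470.4 and 414 in root and 299 and 258 in shoot (0.67 ± 0.13). With all 8 libraries in one fit the counts were 3 toward root and 3 toward shoot, and with the length trend removed 5 were toward root. The shoot water pair was far apart for CYP94B3, at 3.48 and 36.1.

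Of 20 detoxification genes 12 were called toward root and 5 toward shoot, against 45.2% of all tested genes toward root and 33.5% toward shoot, with a median of 0.66. The median of the list in water was -0.29. The change of the organ difference was called in 5 of the 20, all toward root, against 10.4% of all tested genes. The 3 widest gaps were in tau-class glutathione transferases, which join glutathione to foreign compounds. GSTU25 was at 57.8 and 65.1 in root and 2.09 and 1.43 in shoot, GSTU2 at 54.3 and 47.4 in root and 1.1 and 1.66 in shoot, and GSTU22 at 18.23 and 18.58 in root and 0.31 and 0.08 in shoot. On the shoot side DTX1, an efflux carrier for toxic compounds, had 2.07 and 1.95 in root and 34.0 and 44.3 in shoot. The gap of GSTU2 was 4.45 with 2,5-D and 2.43 in water (adjusted p of the change 0.0156), and that of GSTU25 was 4.51 and 4.75 (adjusted p 0.425).

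Cold and drought genes were toward root in 7 of 10 and toward shoot in 2, against 45.2% of all tested genes toward root and 33.5% toward shoot, with a median of 1.75. LEA7, a protein of desiccation tolerance, had 42.7 and 51.6 in root and 3.66 and 2.12 in shoot, the annexin ANNAT4 113 and 109 in root and 14.1 and 14.4 in shoot, the dehydrin COR47 671 and 738 in root and 119 and 102 in shoot, and KIN1 618 and 530.0 in root and 117 and 75.9 in shoot. The organs did not overlap in these 4 genes, which held for 89.9% of all tested genes. Cytokinin and auxin genes counted 8 toward root and 3 toward shoot of 11, beside 45.2% and 33.5% of all tested genes. GH3.1, which conjugates auxin, had 6.30 and 8.79 in root and 0.48 and 0.51 in shoot, and the auxin importer LAX3 18.4 and 21.0 in root and 6.81 and 6.65 in shoot. CKX5, which degrades cytokinin, had 2.24 and 2.3 in root and 15.0 and 9.80 in shoot, and the auxin exporter PIN3 13.3 and 15.8 in root and 30.7 and 32.1 in shoot.

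Glucosinolate genes were toward root in 7 of 12 and toward shoot in 3, beside 45.2% and 33.5% of all tested genes, with a median of 0.49. The median of the list in water was 1.53. The change of the organ difference was called in 4 of the 12, all toward shoot, against 22.5% of all tested genes. FMO GS-OX4, which oxidises the sulfur of methionine-derived glucosinolates, stood at 114 and 125 in root and 7.55 and 9.59 in shoot, and CYP79F2, at the start of their core pathway, at 58.4 and 73.6 in root and 5.65 and 6.90 in shoot. BCAT4, which begins chain elongation of methionine, had 424 and 422 in root and 72.2 and 104 in shoot. ESP, which directs their breakdown toward nitriles, was at 3.22 and 3.23 in root and 24.2 and 25.4 in shoot. Among flavonoid genes, the flavonol regulator MYB12 had 14.7 and 20.6 in root and 0.48 and 0.26 in shoot (3.75). TT7 was toward shoot (-0.91), and TT4, chalcone synthase, was not called (0.08). The sign of TT4 flipped to -0.073 with equal totals. With the length trend removed TT4 was called toward shoot, at -0.35 (adjusted p in limma 0.00956). In water the differences were 0.05 for TT7 and 1.03 for TT4, toward root. Both changes were called toward shoot (adjusted p in limma 0.0201 and 0.0315), while that of MYB12, at 2.98 in water, was not.

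Genes close to absent in one organ were counted with limits of at least 10 in both libraries of one organ and below 1 in both of the other. By these limits 73 genes were confined to root and 67 to shoot with 2,5-D, and 41 of the 73 and 32 of the 67 met the same limits in the water libraries. The root set holds 6 genes listed at 0 in both shoots, PSK6, AT5G62340, AT5G24070, AT5G46890, AT3G24020 and AT5G46900, with values of 10.8 to 34.6 in root. The shoot set holds 10 genes listed at 0 in both roots, led by GER3 and AT3G05730. Limits of 20 and 1 left 36 in root and 32 in shoot.

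Close relatives did not always share an organ. Listed genes formed 338 pairs whose translated coding sequences were at least 70% identical over at least 80% of the longer protein. Both members were called toward root in 131 pairs and toward shoot in 63, while 51 pairs had opposite calls and in 93 a member was not called. Of all tested genes, 45.2% were called toward root and 33.5% toward shoot. How often unrelated genes have opposite calls was not set beside these counts, so they do not show that relatives part more or less often. The 338 pairs hold 515 genes, some of them in several pairs, so the pairs are not independent. HSP70 (AT3G12580) and Hsp70-2 (AT5G02490), with proteins 90.2% identical, were opposite: HSP70 had 86.2 and 82.3 in root and 15.41 and 13.95 in shoot (2.44 ± 0.13, SE), and Hsp70-2 9.52 and 13.1 in root and 39.3 and 25.6 in shoot (-1.42 ± 0.21). The inositol phosphate synthases MIPS3 and MIPS1, 89.4% identical, whose promoters are printed above, had 30.5 and 35.8 in root and 10.9 and 10.3 in shoot for MIPS3 (1.55 ± 0.14) and 21.9 and 28.3 in root and 42.5 and 39.5 in shoot for MIPS1 (-0.70 ± 0.15). The calcium-dependent lipid-binding genes AT3G57880 (0.71) and AT1G51570 (-0.90), 93.0% identical, and AT5G24640 (0.58) and AT2G41730 (-0.95), 89.1% identical, were the other two of the 4 most similar opposite pairs. Reads shared between such copies could be counted to either, and the sources used here do not say how they were assigned. At 85% identity 95 pairs remained, 8 of them opposite.

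Promoter letters were counted in the same 250-base windows. The I-box core was present in 14.9% of the 282 genes at least 3 higher in root, 19.5% of the 231 at least 3 higher in shoot, 14.8% of tested genes and 12.3% of all 27443 promoters, and in 28.6% of the 21 antenna and photosystem genes. The G-box was present in 10.99% of the strongly root genes, 5.63% of the strongly shoot genes, 8.72% of tested genes and 6.49% of all promoters. The W-box core was present in 20.6% of the strongly root genes, 11.3% of the strongly shoot genes and 14.5% of tested genes, against 12.2% of all promoters, and the TATA box core in 59.9%, 44.2% and 48.9%, against 47.3%. The heat shock element unit was present in 5 of the 18 heat shock genes (27.8%), 11.6% of tested genes and 9.55% of all promoters. In the HSP17.4 window printed above it starts 99 and 18 bases before the gene start. These are matches of letters with no test, and a window without a match says nothing of the factor.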

How the data were processed

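RNA of roots and shoots was sequenced in 8 libraries, 2 per organ and treatment. Reads were aligned with HISAT2 2.0.4, per the submitters' processing notes. The sources used here do not give the build, annotation or program behind the values. The values deposited by the authors are a normalised expression signal per gene with no unit named. In each library 88.1% to 93.5% of the low values tried lay within 0.1 of a whole multiple of a fitted step scaled by gene length, the best of many steps tried, as FPKM or TPM would give, so no count model was used. Total depth is unknown and the number of libraries limits the precision.

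Tables were joined on gene ID. All 3691 IDs matched RefSeq locus tags of TAIR10.1, which gave symbols, lengths, promoters and coding sequences. Values were tested as log2(value + 1) with limma 3.58.1 in R 4.3.3 with a mean-variance trend, on 4 libraries for the organ difference and on 8 for its change between 2,5-D and water, with Benjamini-Hochberg adjustment over all tested genes and a threshold of 0.05. An exact permutation test of 2 against 2 cannot give a p below 0.333. Both shoot 2,5-D columns carry the header of replicate 1, so their numbers 1 and 2 are names by column order. Protein identity came from blastp 2.17.0. The fits were tested on simulated data first.

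Named genes were the 12 largest differences in each direction among called genes whose organs do not overlap. Also named were up to 4 of each list, all listed nitrate and ammonium transporters, the 5 largest changes in each direction and the 4 most similar opposite pairs. HSP101, HSFA2, HSFB1, AOC3 and other genes given with values beyond these were chosen after their values were seen. The members and lists were chosen with earlier results of these data known.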

Additional observations from a re-analysis of the deposited data

Results flagged for a closer look

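The organ difference with 2,5-D and that in water were compared by a test of their difference over all 8 libraries, and 1187 of 3602 genes passed an adjusted p of 0.05 in limma. The largest called changes toward root were 4.18 for HSP21, 3.84 for HSP17.6C, 3.77 for HSP17.6II, 3.73 for HSP22.0 and 3.64 for AT4G28290, on the log2 scale. Those toward shoot were -2.41 for MC8, -2.34 for AT2G17740, -2.33 for CYP76C6, -2.23 for AT4G11170 and -2.18 for RLP12. The 10 genes kept their sign in every alternative setting run, and lost the call in 47 of 157 gene and setting combinations. Each group holds 2 libraries, too few to look for an outlying library within a group.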

How the results depend on the processing

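The count of genes differing between organs with 2,5-D stayed within 1.5 times of 2840 in every setting run, from 2351 with all 8 libraries in one fit to 2902 with quantile normalisation, and was 2568 to 2663 with a library left out. Of 1641 values of 127 named organ differences, 1618 kept direction and call, 18 lost the call and 5 changed sign, all in genes not called in the organ fit as reported: JKD at -0.16 with quantile normalisation, and TT4 at -0.0080 with equal medians, -0.073 with equal totals, -0.078 with quantile normalisation and -0.35 with the length trend removed, where it was called toward shoot (adjusted p in limma 0.00956). The change of the organ difference was less stable. Against 1187 called, 375 toward root and 812 toward shoot, equal medians gave 687 with 211 toward shoot, equal totals 207 toward root, quantile normalisation 555 with 218 toward shoot, and removal of the length trend 231 with 138 toward root and 93 toward shoot. With a library left out the count ran from 0 to 1954, with 0 to 648 toward root and 0 to 1306 toward shoot; the lone library left in a group is then assumed to vary like the others. The share of calls toward root was 31.6%, and 69.3%, 16.3%, 60.7% and 59.7% under those 4 settings, whose median shifts ran from -0.45 to 0.14. The cause was not tested. Limits of 20 and 1 gave 36 and 32 organ-restricted genes, and 85% identity gave 95 pairs with 8 opposite. Of 650 list counts 21 moved by over 1.5 times. No paired analysis was possible because both shoot 2,5-D columns carry the same replicate number. Values near 1 rest on few reads, and total depth is unknown.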

Other observations

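Subunits and assembly factors of the chloroplast NDH complex, which cycles electrons around photosystem I, stood among the 67 genes confined to shoot by the limits above; they were picked out after the values were seen and carry no test of their own as a group. NdhU was listed at 0 in both root libraries and had 24.2 and 33.5 in shoot. PnsL2 had 0.40 and 0.69 in root and 35.5 and 53.8 in shoot, and PnsL3 0.49 and 0.34 in root and 10.4 and 14.7 in shoot. With NdhL, at 0.11 and 0.22 in root and 97.6 and 152 in shoot, the 4 genes had a lower value in shoot library 1 than in shoot library 2. On the root side, the precursor genes of the growth peptide phytosulfokine, PSK1 and PSK6, were near absent from shoot: PSK1 had 32.4 and 37.5 in root and 0.10 and 0.11 in shoot, and PSK6 had 32.6 and 34.6 in root and was listed at 0 in both shoots. The kinase gene WAK3 of the cell wall had 0.17 and 0.09 in root and 30.9 and 28.2 in shoot with 2,5-D, and 0.18 and 0.15 in root and 7.33 and 5.97 in shoot with water.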
